A study of Homo sapiens with 24 samples.

Results

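The MET receptor axis was described here through 8 genes of the 60675 in the count tables. They were MET, its ligand HGF, the related receptor MST1R, the adaptor GAB1, the ligand-activating proteases ST14 and HPN, and the protease inhibitors SPINT1 and SPINT2. The members were listed by symbol, with earlier results of these data known. All 8 had an entry for each of the 24 libraries, although HGF, MST1R, ST14 and HPN had no counts in some of them. RNA-seq was performed in ACHN cells, a renal carcinoma line labelled ccRCC, and in HK2 cells, a line of human kidney tubule origin. Each line had 4 groups of 3 libraries, namely the control shNC, the KDM5C knockdown shKDM5C, the YY1 knockdown shYY1 and the double knockdown Dsh. KDM5C is a histone H3 lysine demethylase, and YY1 is a zinc finger transcription factor. Knockdowns were stable lentiviral short hairpin lines under puromycin selection, and Dsh cells carried the YY1 hairpin plus a hairpin against KDM5C on a GFP vector. Each knockdown line may be a single selected population, which is not stated, and the hairpin background of Dsh differed from that of the single knockdowns. The labels number the libraries of a group as repeats without naming separate cultures, so p-values measure the spread between these libraries, which may be technical.

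MET is a receptor tyrosine kinase that binds hepatocyte growth factor, the product of HGF, and signals through the docking protein GAB1 to the RAS-MAPK and PI3 kinase pathways. HGF is secreted as an inactive single chain, and surface serine proteases such as matriptase (ST14) and hepsin (HPN) cleave it into its active form. The Kunitz-type inhibitors HAI-1 (SPINT1) and HAI-2 (SPINT2) hold these proteases in check. MST1R, also called RON, is the closest relative of MET and binds macrophage-stimulating protein. In kidney, the axis is known for tubule growth and repair after injury, and activating MET mutations occur in hereditary papillary renal carcinoma.

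On GRCh38 with the Ensembl release 84 gene models of the tables, MET lies on chromosome 7 from 116672390 to 116798386 on the forward strand. HGF lies on the same chromosome from 81699006 to 81770438 on the reverse strand. The other members lie on chromosome 3 (MST1R, 49887002 to 49903873, reverse), chromosome 4 (GAB1, 143336762 to 143474568, forward), chromosome 11 (ST14, 130159562 to 130210376, forward), chromosome 15 (SPINT1, 40844018 to 40858207, forward) and chromosome 19 (HPN, 35040506 to 35066571, and SPINT2, 38244035 to 38292614, both forward). Every value below counts read pairs over all exons of a gene. Counting did not use strand, and the overlapping genes of other members held few counts. The largest such share was 88 counts in a gene opposite MST1R against 1992 for MST1R over the 24 libraries.

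RefSeq promoter windows (GRCh38.p14) were matched for 5 of the 8 members, and the bases upstream of the RefSeq start are shown for MET, the receptor, and for SPINT1 and HPN, which rose together in HK2 Dsh cells and are described below. SPINT1 had 2 such windows, of which the first listed was used. The HPN window lies inside the HPN gene as counted, which starts at 35040506. Bases that fall in an exon of the count tables were left out. Capitals mark the GC box (GGGCGG, or CCGCCC on the other strand), the only one of 4 motifs found in them. The windows are chr7:116671946-116672195 for MET, chr15:40843798-40844017 for SPINT1 and chr19:35041471-35041720 for HPN, all on the forward strand and printed 5′ to 3′.
MET: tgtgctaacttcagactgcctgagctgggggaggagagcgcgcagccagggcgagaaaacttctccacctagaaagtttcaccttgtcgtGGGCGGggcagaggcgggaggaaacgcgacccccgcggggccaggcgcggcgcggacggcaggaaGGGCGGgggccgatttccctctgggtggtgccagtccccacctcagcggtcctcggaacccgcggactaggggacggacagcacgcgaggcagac
SPINT1: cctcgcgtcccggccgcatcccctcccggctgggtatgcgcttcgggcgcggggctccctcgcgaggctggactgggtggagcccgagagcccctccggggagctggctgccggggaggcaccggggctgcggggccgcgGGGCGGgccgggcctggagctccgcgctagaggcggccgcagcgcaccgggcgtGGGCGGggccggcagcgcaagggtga
HPN: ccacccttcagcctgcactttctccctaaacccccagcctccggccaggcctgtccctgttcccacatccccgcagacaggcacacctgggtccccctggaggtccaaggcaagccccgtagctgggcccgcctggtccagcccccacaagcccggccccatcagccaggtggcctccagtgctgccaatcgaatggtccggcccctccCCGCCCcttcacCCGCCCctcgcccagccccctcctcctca

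In full windows of 250 bases before the start, the GC box was present in 42.6% of 35116 RefSeq promoters, and MET held 2 copies, SPINT1 3 and HPN 2. All motifs were searched on both strands. The YY1 core CCATNTT was in 11.6% of all windows, the AP-1 site TGANTCA in 6.57% and the E-box CACGTG in 6.34%, and these letters were in none of the 5 member windows searched. The motifs do not overlap one another in the windows shown. GC content was 68.4% in the MET window with 24 CpG dinucleotides, 80.4% with 35 in SPINT1 and 70.4% with 10 in HPN, against a median of 58.0% and 11 over all windows. A motif match is a description of the letters, not a binding site.

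Library totals ran from 15926561 to 24272298 counts. KDM5C fell in every shKDM5C and Dsh group and YY1 in every shYY1 and Dsh group against shNC (edgeR adjusted p from 6.76e-21 to 0.0184 for KDM5C and from 4.27e-21 to 1.14e-07 for YY1). In ACHN Dsh the YY1 log2 fold change was -0.51 ± 0.05 (SE), against -0.88 ± 0.04 in ACHN shYY1. The HK2 shKDM5C replicate 1 library stood apart: a chi-square per gene of 129 and 123 separated it from replicates 2 and 3, which differed from each other by 3.20. It held KDM5C at 37.3 CPM against 68.4 and 67.4 CPM (counts scaled to library size) in replicates 2 and 3. Results that rest on it are given with and without it. Of 10 renal epithelial markers, PAX8, PAX2, KRT8, KRT18 and CDH16 were at 1 TPM or more (a level scaled to transcript length and library size) in every group, and LRP2, CUBN, AQP1 and SLC34A1, which define proximal tubule, were under 1 TPM in every group. The summed level of 7 fibroblast markers was 219.6 to 240.2 TPM in ACHN shNC libraries, 44.6 to 46.5 in ACHN shKDM5C, 96.3 to 107 in ACHN shYY1 and 75.4 to 87.6 in ACHN Dsh, with LUM at 0 in all 4 groups. In HK2 it was 23.8 to 26.6 TPM in shNC, 18.9 to 26.7 in shKDM5C, 44.7 to 51.8 in shYY1 and 79.1 to 92.9 in Dsh. The summed level of the 10 epithelial markers was 1192 to 1213 TPM in ACHN shNC, 1286 to 1313 in ACHN shKDM5C, 1361 to 1439 in ACHN shYY1 and 879 to 962 in ACHN Dsh. In HK2 it was 1803 to 1880.5 TPM in shNC, 1239 to 1895 in shKDM5C, 1115 to 1196 in shYY1 and 876 to 916 in Dsh. The sums need not follow the single markers, called at an edgeR adjusted p under 0.05. Of 7 epithelial markers tested in ACHN, 1 was higher and 5 lower in shKDM5C (median -0.69). It was 3 and 3 in shYY1 and 1 and 5 in Dsh. Of 3 fibroblast markers there, it was 0 and 2, 1 and 1, and 1 and 2. In HK2 shYY1 it was 0 and 4 of 6 epithelial and 1 and 2 of 4 fibroblast markers. In HK2 Dsh it was 1 and 5 of 7 and 1 and 0 of 4. All-gene shares are given below with the pathway lists. These lists moved with the knockdowns, and their part in the results below was not tested. The 6 blood and endothelial markers summed to at most 1.13 TPM in any ACHN library and 14.7 TPM in any HK2 library, the latter with CD14 alone at 1 TPM or more. In bulk RNA, fewer cells of a type and less RNA per cell cannot be told apart.

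Among the members tested, MST1R, SPINT2 and the proteases ST14 and HPN differed most between the control cells of the lines. In control ACHN cells, the per-length levels in decreasing order were MET at 193 TPM, SPINT1 at 10.7, GAB1 at 7.23, MST1R at 6.82, SPINT2 at 1.19, HGF at 0.0606 and HPN at 0.0351, with ST14 at 0. In control HK2 cells, SPINT2 led at 272 TPM, followed by MET at 121, SPINT1 at 31.6, HPN at 7.24, GAB1 at 6.85, ST14 at 2.17 and MST1R at 0.101, with HGF at 0. Among all genes with any count in a line's shNC libraries, MET stood at the 98.0th percentile of mean TPM in ACHN and the 95.9th in HK2, and SPINT2 at the 43.0th and 98.6th.

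Between the shNC groups of the lines, 7 of 7 tested members passed an edgeR adjusted p under 0.05, against a background of 76.6% of all genes tested. Of these, 3 were higher in ACHN (MET, MST1R and GAB1; background 38.6%) and 4 higher in HK2 (ST14, HPN, SPINT1 and SPINT2; background 38.0%), and 4 exceeded the study's log2 limit of 1.5, against 21.3% of all genes. MET was 0.79 ± 0.03 (SE) higher in ACHN on the log2 scale (adjusted p = 5.51e-18), and SPINT1 was lower in ACHN by -1.45 ± 0.09 (adjusted p = 6.51e-14). SPINT2, counted at 104 over the ACHN shNC libraries and 21727 over the HK2 shNC libraries, was 219.6-fold higher in HK2 per total counts (95% counting interval 181 to 269). The GAB1 difference of 0.19 ± 0.08 (adjusted p = 0.0466) was lost in 10 alternatives, with adjusted p up to 0.164. Line and any batch of the line cannot be told apart.

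ST14 and HPN in ACHN and MST1R in HK2 were close to undetected. ST14 had 0 counts in the ACHN shNC libraries against 144 in HK2 shNC, which made it at least 50.5-fold higher in HK2 with a floor of 3 counts over the group. HPN had 2 counts in ACHN shNC and 377 in HK2 shNC, a ratio of 198 per total counts (counting interval 54.5 to 1642). MST1R had 601 counts in ACHN shNC and 8 in HK2 shNC, a ratio of 71.5 (36.0 to 166). Intervals and floors cover counting error only, and a library at 0 allowed up to 0.124 to 0.188 CPM. The plot of the members other than MET shows these gaps between the lines on a log axis.

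**Figure D1:**
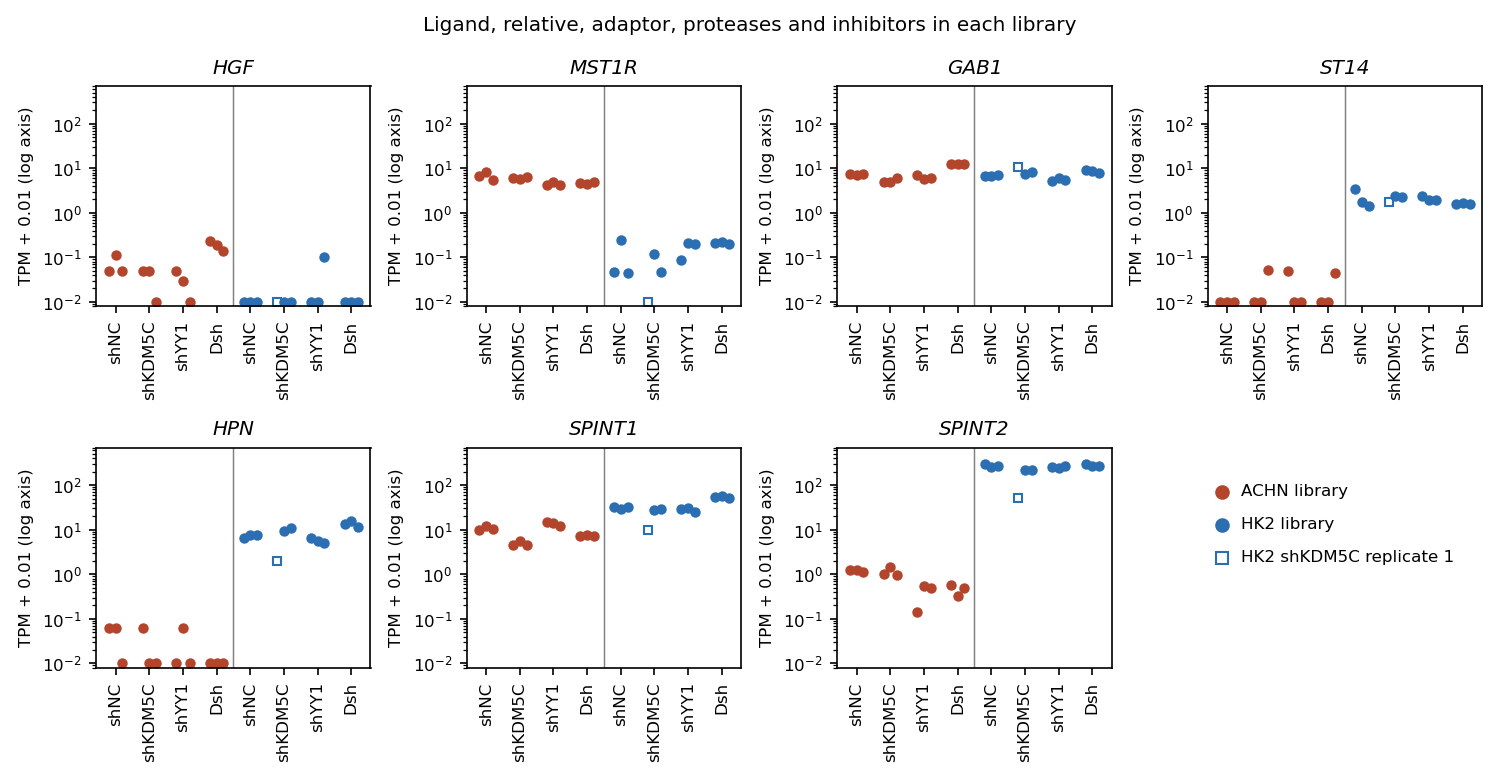
Level of 7 members in each of the 24 libraries, as TPM + 0.01 on a log axis, by knockdown group, with ACHN on the left of each panel (red) and HK2 on the right (blue). ST14 and HPN lie at or near the bottom of the axis in ACHN and MST1R and HGF do so in HK2, and SPINT2 is over 200 TPM in HK2 outside shKDM5C replicate 1 (open square).

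HGF, the ligand, was counted at 0 to 11 in every library and did not pass the low-count filter, so it has no test. The ACHN shNC libraries held 2, 5 and 2 counts, shKDM5C 2, 2 and 0, shYY1 2, 1 and 0, and Dsh 11, 8 and 8. The 3 Dsh libraries were the highest and did not overlap any other ACHN group. Per total counts the Dsh to shNC ratio was 2.75 (95% counting interval 1.25 to 6.64), on 27 against 9 counts. In HK2, 11 of 12 libraries had 0 counts, and the remaining shYY1 library, replicate 3, had 4. At this depth HGF RNA was not detectable in the HK2 shNC, shKDM5C and Dsh groups.

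MET, the receptor, was higher than in shNC in the shYY1 and Dsh groups of both lines. The ACHN shNC libraries held 195, 192 and 193 TPM, shKDM5C 183, 173 and 179, shYY1 227, 231 and 226, and Dsh 281, 326 and 292. No 2 of these 4 groups overlapped, and their order was Dsh, shYY1, shNC and shKDM5C. The log2 fold change against shNC was 0.55 ± 0.05 (SE) in Dsh (edgeR adjusted p = 6.61e-09), 0.25 ± 0.03 in shYY1 (adjusted p = 6.75e-10) and -0.08 ± 0.03 in shKDM5C (adjusted p = 0.0207). The last, a change of 0.945-fold, did not pass in 6 alternatives, which included leaving out shNC replicate 1 or 3 or shKDM5C replicate 2 or 3 (adjusted p up to 0.130 over the alternatives).

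In HK2 the shNC libraries held 122, 125 and 116 TPM of MET, shYY1 149, 145 and 142, and Dsh 171, 177 and 169. These 3 groups did not overlap. The shKDM5C libraries held 165, 109 and 111 TPM, so that replicate 1 lay above shYY1 and the other two lay below every shNC library. MET was higher by 0.50 ± 0.04 in Dsh (edgeR adjusted p = 2.08e-11) and by 0.30 ± 0.05 in shYY1 (adjusted p = 3.46e-05). In shKDM5C it was 0.24 ± 0.26 (adjusted p = 0.636), and without replicate 1 the direction turned, to -0.14 ± 0.04 (adjusted p = 0.0220). The MET effect of Dsh differed between the lines by 0.07 ± 0.06 (adjusted p = 0.408) and that of shYY1 by -0.04 ± 0.05 (adjusted p = 0.631), ACHN minus HK2. With all 4 HK2 groups in 1 fit, which takes its spread partly from shKDM5C, the Dsh value of 0.49 had an adjusted p of 0.0833 and the shYY1 value of 0.30 one of 0.452. The same fit without shKDM5C replicate 1 gave 0.50 and 0.30, both with an edgeR adjusted p under 0.05.

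**Figure D2:**
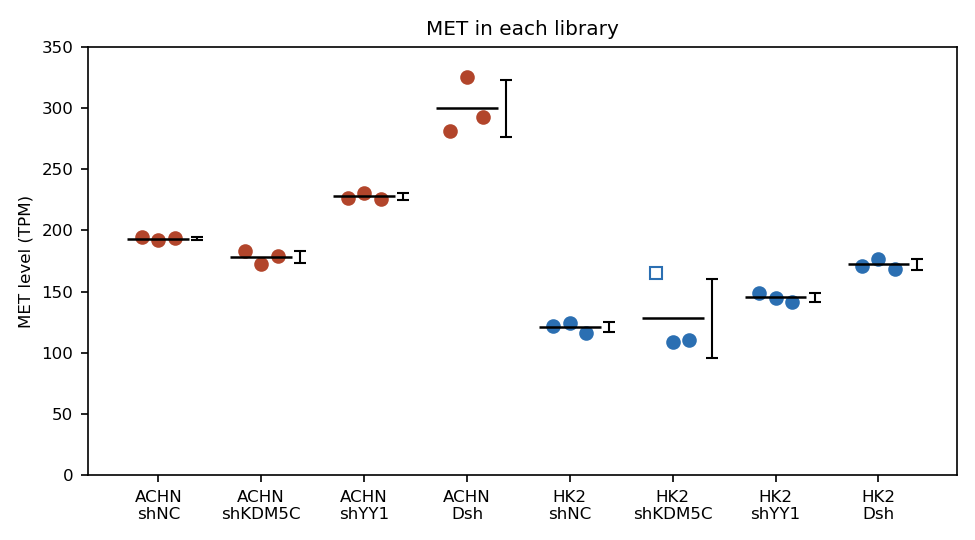
MET level in TPM in each library, by cell line and knockdown (points), with the group mean (line) and SD (bar, n = 3). ACHN Dsh libraries sit between 281 and 326 TPM, above every other library, and HK2 Dsh libraries between 169 and 177 TPM, above the HK2 shNC and shYY1 libraries. The open square is HK2 shKDM5C replicate 1 at 165 TPM.

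Over the 8 groups, MET means ran from 299.8 ± 23.1 TPM (SD, n = 3) in ACHN Dsh through 228 ± 2.65 in ACHN shYY1, 193 ± 1.35 in ACHN shNC, 178 ± 5.26 in ACHN shKDM5C, 172 ± 4.24 in HK2 Dsh, 145 ± 3.57 in HK2 shYY1 and 128 ± 32.1 in HK2 shKDM5C to 121 ± 4.14 in HK2 shNC. Neighbours in this order overlapped for ACHN shKDM5C and HK2 Dsh, for HK2 shYY1 and HK2 shKDM5C, and for HK2 shKDM5C and HK2 shNC.

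Against the single knockdowns, MET in ACHN Dsh was 0.28 ± 0.05 above shYY1 (edgeR adjusted p = 5.38e-05) and 0.63 ± 0.05 above shKDM5C (adjusted p = 3.55e-09). In HK2 Dsh it was 0.20 ± 0.05 above shYY1 (adjusted p = 0.00134), or 0.19 with an adjusted p of 0.527 when all 4 HK2 groups were fitted together. Against HK2 shKDM5C the value was 0.26 ± 0.25 (adjusted p = 0.528), and without replicate 1 it was 0.64 ± 0.05 (adjusted p = 7.00e-11). The interaction, which is the log2 effect of Dsh beyond the sum of both single effects, was 0.35 ± 0.05 for MET in ACHN (adjusted p = 4.23e-06). In HK2 it was -0.04 ± 0.27 with all libraries (adjusted p = 0.940) and 0.34 ± 0.06 without shKDM5C replicate 1.

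MST1R, the relative of MET, moved the other way in ACHN. Its shNC libraries held 6.80, 8.11 and 5.56 TPM, shKDM5C 5.97, 5.65 and 6.32, shYY1 4.22, 4.82 and 4.26, and Dsh 4.71, 4.34 and 4.86. Both shYY1 and Dsh lay below every shNC library, and overlapped each other. The log2 fold change was -0.61 ± 0.12 in shYY1 (edgeR adjusted p = 9.49e-05) and -0.63 ± 0.14 in Dsh (adjusted p = 0.000529), against -0.16 ± 0.12 in shKDM5C (adjusted p = 0.275). The interaction was 0.10 ± 0.18 (adjusted p = 0.652). In HK2 no library had more than 6 MST1R counts, and no knockdown of that line was tested for it.

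GAB1, the docking protein through which MET recruits its effectors, was highest in Dsh in ACHN although it was lower in shKDM5C. The ACHN shNC libraries held 7.25, 7.07 and 7.38 TPM, shKDM5C 5.00, 4.93 and 5.97, shYY1 7.19, 5.64 and 6.15, and Dsh 12.5, 12.4 and 12.2. Dsh lay above and shKDM5C below every shNC library, and shYY1 overlapped shNC. The log2 fold change was 0.69 ± 0.07 in Dsh (edgeR adjusted p = 9.10e-08), -0.41 ± 0.08 in shKDM5C (adjusted p = 0.000108) and -0.18 ± 0.08 in shYY1 (adjusted p = 0.0602). The shYY1 value passed when scaled by total counts (adjusted p = 0.0418) and without shYY1 replicate 1 (-0.27, adjusted p = 0.00746), and it was -0.09 without shYY1 replicate 2. The interaction of 1.25 ± 0.12 (adjusted p = 2.14e-09) was the largest among the members tested in ACHN.

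In HK2, GAB1 was at 6.69, 6.84 and 7.03 TPM in shNC, 5.25, 5.99 and 5.44 in shYY1 and 9.02, 8.57 and 7.81 in Dsh. Dsh lay above and shYY1 below every shNC library. Dsh was higher by 0.29 ± 0.10 (edgeR adjusted p = 0.0121), which did not hold without Dsh replicate 1 (0.25, adjusted p = 0.0628), and shYY1 had a value of -0.26 ± 0.10 (adjusted p = 0.0624). The shKDM5C libraries held 10.7, 7.41 and 8.22 TPM, with a value of 0.50 ± 0.24 (adjusted p = 0.364), or 0.19 ± 0.10 without replicate 1. Dsh was 0.56 ± 0.11 above shYY1 (adjusted p = 0.000115). With all 4 HK2 groups in 1 fit neither Dsh difference passed (adjusted p = 0.304 against shNC and 0.0508 against shYY1).

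Of the activating proteases, HPN was higher in HK2 Dsh, and ST14 passed no test within HK2. HPN held 6.44, 7.60 and 7.67 TPM in HK2 shNC, 6.60, 5.53 and 5.01 in shYY1, and 13.1, 15.3 and 11.4 in Dsh. Dsh lay above both other groups, and shYY1 overlapped shNC. The log2 fold change was 0.86 ± 0.15 in Dsh (edgeR adjusted p = 1.15e-05) and -0.30 ± 0.17 in shYY1 (adjusted p = 0.199), and Dsh was 1.17 ± 0.16 above shYY1 (adjusted p = 1.57e-06). With all 4 HK2 groups in 1 fit the difference of Dsh from shNC had an adjusted p of 0.104. In HK2 shKDM5C, HPN was at 1.99 TPM in replicate 1 and at 9.33 and 10.7 TPM in replicates 2 and 3, with a value of 0.07 ± 0.46 (adjusted p = 0.947), or 0.47 ± 0.16 without replicate 1 (adjusted p = 0.0343). ST14 held 3.35, 1.75 and 1.40 TPM in HK2 shNC and 1.59, 1.69 and 1.55 in Dsh, on 32 to 73 counts a library. The groups overlapped, and the value was -0.43 ± 0.32 (adjusted p = 0.266), with shNC replicate 1 the highest of the 12 HK2 libraries.

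SPINT1, which encodes the matriptase and hepsin inhibitor HAI-1, changed in opposite directions in the double knockdowns of the lines. In ACHN it was at 9.74, 12.2 and 10.1 TPM in shNC, 4.45, 5.45 and 4.53 in shKDM5C, 14.6, 14.3 and 12.1 in shYY1, and 7.09, 7.63 and 7.17 in Dsh. In TPM shKDM5C and Dsh lay below every shNC library, and 2 of the 3 shYY1 libraries lay above every shNC library. The log2 fold change was -1.12 ± 0.13 in shKDM5C (edgeR adjusted p = 4.11e-08), 0.37 ± 0.10 in shYY1 (adjusted p = 0.00187) and -0.64 ± 0.12 in Dsh (adjusted p = 0.000145). The interaction was 0.08 ± 0.17 (adjusted p = 0.698), and Dsh was 0.48 ± 0.14 above shKDM5C (adjusted p = 0.00720) and below shYY1 by -1.03 ± 0.11 (adjusted p = 3.08e-07).

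In HK2, SPINT1 was at 32.3, 29.9 and 32.6 TPM in shNC, 28.5, 30.8 and 24.4 in shYY1, and 54.7, 56.2 and 51.8 in Dsh. Dsh lay above every other HK2 library. The value was 0.77 ± 0.07 in Dsh (edgeR adjusted p = 1.78e-10) and -0.14 ± 0.09 in shYY1 (adjusted p = 0.274). The shKDM5C libraries held 10.0, 27.8 and 28.9 TPM, with a value of -0.44 ± 0.29 (adjusted p = 0.475), or -0.15 ± 0.09 without replicate 1. The interaction was 1.35 ± 0.32 (adjusted p = 0.0208) with all libraries and 1.07 ± 0.12 without that one. With it, 6 of the single-library omissions brought the adjusted p to between 0.0519 and 0.0654. Against shKDM5C, Dsh was higher by 1.21 ± 0.29 (adjusted p = 0.0398), a call lost in 7 alternatives, with adjusted p up to 0.147. These 7 all kept shKDM5C replicate 1. Without it the edgeR value was 0.92 ± 0.08 (adjusted p = 1.49e-09). The Dsh effect on SPINT1 was lower in ACHN than in HK2 by -1.39 ± 0.13 (adjusted p = 6.99e-10).

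SPINT2, which encodes the related inhibitor HAI-2, was scarce in ACHN and lower still with YY1 depleted. Its counts were 36, 35 and 33 in ACHN shNC, 30, 42 and 28 in shKDM5C, 4, 16 and 14 in shYY1, and 16, 8 and 17 in Dsh. Both shYY1 and Dsh lay below the other groups, and overlapped each other. The log2 fold change was -1.60 ± 0.34 in shYY1 (edgeR adjusted p = 0.000184), -1.48 ± 0.32 in Dsh (adjusted p = 0.000493) and -0.03 ± 0.24 in shKDM5C (adjusted p = 0.923). In HK2 it was at 292, 260.2 and 263 TPM in shNC, 249.6, 245 and 269 in shYY1, and 295, 276 and 276 in Dsh, so that the 3 groups overlapped. The values were -0.05 ± 0.05 in shYY1 (adjusted p = 0.474) and 0.05 ± 0.04 in Dsh (adjusted p = 0.423). The shKDM5C libraries held 51.7, 216.5 and 214 TPM, with a value of -0.71 ± 0.40 (adjusted p = 0.422). Without replicate 1 it was lower by -0.33 ± 0.04 (adjusted p = 4.17e-06). The SPINT2 effect was lower in ACHN than in HK2 by -1.53 ± 0.29 in shYY1 (adjusted p = 0.000109) and by -1.50 ± 0.23 in Dsh (adjusted p = 3.97e-06).

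The ratio of the inhibitors was set apart between the lines. SPINT1 TPM was 8.03 to 10.0 times SPINT2 TPM in the ACHN shNC libraries, 3.77 to 4.72 times in shKDM5C, 25.2 to 109 times in shYY1 and 12.8 to 24.8 times in Dsh. The highest values rest on few SPINT2 counts, 4 in ACHN shYY1 replicate 1 and 8 in ACHN Dsh replicate 2. In HK2 SPINT1 was 0.111 to 0.124 times SPINT2 in shNC, 0.0906 to 0.126 times in shYY1, 0.185 to 0.204 times in Dsh and 0.128 to 0.194 times in shKDM5C, where replicate 1 was the highest. The summed protease level (ST14 and HPN) was 3.02% to 3.22% of the summed inhibitor level (SPINT1 and SPINT2) in HK2 shNC, 2.36% to 3.22% in shYY1, 3.94% to 5.14% in Dsh and 4.80% to 6.11% in shKDM5C, again with replicate 1 the highest. Both Dsh and shKDM5C lay above shNC and overlapped each other. It was at most 0.949% in any ACHN library, where ST14 and HPN each had 0 or 1 count.

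**Figure D3:**
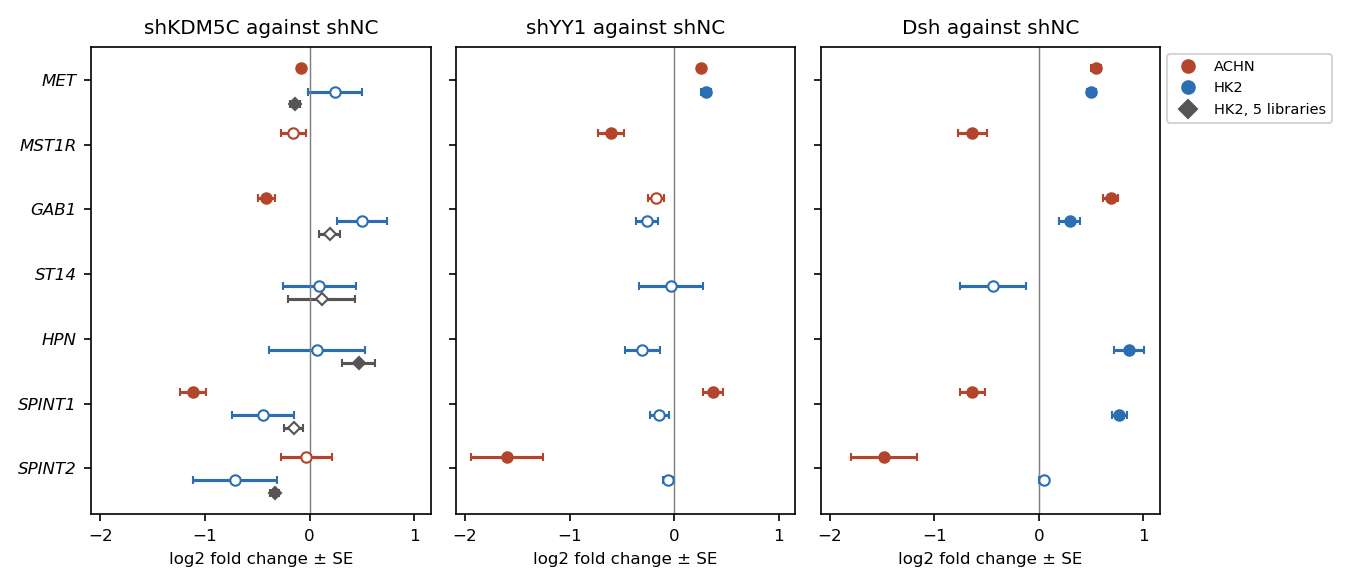
Log2 fold change against shNC (points, with SE bars) of the members tested, for shKDM5C, shYY1 and Dsh in ACHN (red) and HK2 (blue), where filled symbols passed an edgeR adjusted p under 0.05. Grey diamonds are the HK2 shKDM5C comparison without replicate 1. MET sits above 0 in shYY1 and Dsh of both lines, and SPINT1 in Dsh sits at -0.64 in ACHN and 0.77 in HK2.

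The number of members called is given here beside the share called among all genes tested. In ACHN, 3 of 5 tested members passed in shKDM5C (3 lower; background 56.6% of all genes), 4 of 5 in shYY1 (2 higher, 2 lower; 48.7%; 4 to 5 with single libraries left out) and 5 of 5 in Dsh (2 higher, 3 lower; 62.6%). In HK2, 0 of 6 passed in shKDM5C (1.32%) with edgeR, 0 had an unadjusted p under 0.05 and 0 passed with DESeq2, while without replicate 1 the count was 3 of 6 (22.3%). In HK2 shYY1 it was 1 of 6, MET (29.1%), and in Dsh 4 of 6, all higher (MET, GAB1, HPN and SPINT1; 49.8%). The median log2 fold change in Dsh was -0.63 over the 5 members tested in ACHN (all genes -0.01), of which 2 were above 0. It was 0.40 over the 6 tested in HK2 (all genes 0.00), of which 5 were above 0. The sets differ, since MST1R was tested only in ACHN and ST14 and HPN only in HK2. Among these 6 comparisons 1 member, SPINT2 in ACHN shYY1, exceeded the log2 limit of 1.5, against 3.13% of all genes there. Without shYY1 replicate 1, which held 4 counts, the SPINT2 value was -1.18 and did not exceed it. Groups whose CPM ranges did not overlap were common, at 31.7% to 67.2% of all genes over the 6 comparisons.

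Between Dsh and the single knockdowns, 5 of 5 members passed against shKDM5C in ACHN (62.5% of all genes) and 3 of 5 against shYY1 (64.6%). In HK2, 1 of 6, SPINT1, passed against shKDM5C (11.9%), or 4 of 6 without replicate 1 (43.3%), and 4 of 6 against shYY1 (47.7%). The interaction passed for 2 of 5 members in ACHN, MET and GAB1 (55.6%), and for 1 of 6 in HK2, SPINT1 (9.61%), or for 4 of 6, MET, SPINT1, HPN and SPINT2, without replicate 1 (28.7%). Tests of the difference between the lines passed for 1 of 7 members in shKDM5C (11.9%), 2 of 7 in shYY1 (33.1%) and 4 of 7 in Dsh (46.0%). All knockdown comparisons of a line share its shNC libraries.

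The wider pathway was followed in 5 lists of 54 genes in all. In ACHN Dsh, 26 of 48 tested list genes were higher and 9 lower, with a median of 0.23, where 30.7% of all genes were higher and 32.0% lower. In HK2 Dsh 23 of 49 were higher and 13 lower, with a median of 0.15, where 25.5% and 24.3% of all genes were. In ACHN shKDM5C 29 of 48 were higher and 11 lower (all genes 28.9% and 27.7%), and in ACHN shYY1 19 and 19 (24.2% and 24.5%). In HK2 shYY1 14 were higher and 11 lower (14.3% and 14.7%). In HK2 shKDM5C 2 were higher and 2 lower (0.668% and 0.656%), but 6 and 14 of 48 without replicate 1, where 22.3% of all genes were called in either direction.

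The MAPK output genes, which ERK signalling downstream of MET and other receptors is known to induce, were mostly higher in both double knockdowns. In ACHN Dsh 9 of 9 tested were higher, with a median of 1.31 (all genes 30.7% higher and 32.0% lower). In HK2 Dsh 7 of 9 were higher and 1 lower, with a median of 1.03 (all genes 25.5% and 24.3%). ETV5, an ETS transcription factor, went from 7.67 ± 0.39 to 29.4 ± 0.80 CPM (SD, n = 3) in ACHN Dsh, a log2 change of 1.93 ± 0.09 (edgeR adjusted p = 1.19e-12). PHLDA1 rose in HK2 Dsh by 1.95 ± 0.05 (adjusted p = 1.51e-24) and the feedback inhibitor SPRY2 by 1.67 ± 0.09 (adjusted p = 7.45e-16). EPHA4, an ephrin receptor, was higher in ACHN Dsh by 1.48 ± 0.11 (adjusted p = 1.75e-09) and lower in HK2 Dsh by -0.94 ± 0.11 (adjusted p = 1.92e-08), and its effect differed between the lines by 2.44 ± 0.16 (adjusted p = 3.78e-13). The list had 8 higher and 1 lower in ACHN shKDM5C with a median of 0.82 (all genes 28.9% and 27.7%). In ACHN shYY1 it had 4 higher and 2 lower with a median of 0.13 (24.2% and 24.5%). In HK2 shKDM5C it had 1 higher and 1 lower (0.668% and 0.656%), or 2 and 2 without replicate 1. In HK2 shYY1 it had 4 higher and 1 lower (14.3% and 14.7%).

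Among ligand activation genes, the plasminogen activators were higher in the double knockdown of both lines than in shNC and in either single knockdown. PLAT, tissue plasminogen activator, was higher by 2.19 ± 0.06 in ACHN Dsh (edgeR adjusted p = 9.33e-16) and 1.81 ± 0.09 in HK2 Dsh (adjusted p = 8.26e-17). PLAU, urokinase, went from 136 ± 2.04 CPM in ACHN shNC to 305 ± 10.4 in shKDM5C, 288 ± 3.87 in shYY1 and 362 ± 21.1 in Dsh, so that most of its difference from shNC was present in each single knockdown. In HK2 it was at 256 ± 8.17 CPM in shNC, 169 ± 83.3 in shKDM5C, 245 ± 17.8 in shYY1 and 887 ± 69.3 in Dsh. The PLAU log2 fold change in HK2 shKDM5C was -0.24 ± 0.04 without replicate 1 (edgeR adjusted p = 0.000259). EPCAM, an adhesion molecule cleaved by matriptase, fell by 1.38 on the log2 scale in ACHN Dsh and by 1.01 in HK2 Dsh, and F2RL1, the protease-activated receptor PAR2, fell by 0.70 and 0.37. Without replicate 1, EPCAM was at -1.02 ± 0.07 in HK2 shKDM5C, and HK2 Dsh differed from shKDM5C by 0.004 ± 0.09 (edgeR adjusted p = 0.976). F2RL1 was then at -0.04 ± 0.06 in HK2 shKDM5C, and its shKDM5C effect was lower in ACHN by -1.75 ± 0.09. F2RL1 thus fell more in ACHN shKDM5C than in ACHN Dsh. PRSS8, the prostasin protease that acts with matriptase and is held by the same inhibitors, was singled out after its values were seen. It was at 7.65 to 8.21 TPM in ACHN shNC and 0.997 to 1.26 in ACHN Dsh, and at 15.1 to 20.1 TPM in HK2 shNC and 54.8 to 65.8 in HK2 Dsh. Its log2 fold change was -2.88 ± 0.19 in ACHN (adjusted p = 2.41e-10) and 1.78 ± 0.09 in HK2 (adjusted p = 4.08e-16), the same directions as SPINT1. The list had 2 higher and 3 lower of 6 in ACHN Dsh (median -0.29), against 30.7% and 32.0% of all genes. In HK2 Dsh it had 3 higher and 2 lower of 6 (median 1.07), against 25.5% and 24.3%.

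Of the surface partners of MET, CD44, a hyaluronan receptor that acts as a MET co-receptor, rose by 1.39 ± 0.04 (SE, log2) in ACHN Dsh and by 1.36 ± 0.04 in HK2 Dsh. In the single knockdowns it was higher by 1.28 and 0.46 in ACHN shKDM5C and shYY1 and by 0.25 in HK2 shYY1, with -0.14 in HK2 shKDM5C (adjusted p = 0.610). The HK2 shKDM5C value of CD44 was -0.27 ± 0.05 without replicate 1 (edgeR adjusted p = 0.000244). ITGB1, an integrin subunit, was higher by 0.53 in ACHN Dsh and by 0.57 in HK2 Dsh (log2). Its value in HK2 shKDM5C without replicate 1 was -0.11 ± 0.04, and the shKDM5C effect was lower in ACHN by -1.75 ± 0.05. ITGB1 was thus below shNC in ACHN shKDM5C, the opposite direction to ACHN Dsh. EGFR fell by 1.15 on the log2 scale in ACHN Dsh and by 0.67 in HK2 Dsh, ERBB3 fell by 1.98 in ACHN Dsh, and ITGA6 fell by 0.76 in HK2 Dsh. The list counted 4 higher and 3 lower of 10 in ACHN Dsh (median 0.10), against 30.7% and 32.0% of all genes. In HK2 Dsh it counted 3 higher and 7 lower of 10 (median -0.33), against 25.5% and 24.3%. Adaptors and effectors, against the same shares, had 5 higher and 2 lower of 13 in ACHN Dsh (median 0.10). In HK2 Dsh they had 6 higher and 1 lower (median 0.13). Within them STAT3 (1.11 ± 0.04) and SHC1 (0.73 ± 0.05) led in ACHN, and GAB2, the relative of GAB1, (0.76 ± 0.11) and PIK3R1 (0.75 ± 0.06) led in HK2, while CRK was lower by -0.11 ± 0.04 in ACHN and by -0.49 ± 0.05 in HK2. PLCG1 was also lower in ACHN, by -0.15 ± 0.05.

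Negative regulators of MET had 6 higher and 1 lower of 10 in ACHN Dsh (median 0.22), against 30.7% and 32.0% of all genes. In HK2 Dsh they had 4 higher and 2 lower of 11 (median 0.15), against 25.5% and 24.3%. LRIG1, a transmembrane inhibitor of receptor kinases, was higher in ACHN Dsh (1.02 ± 0.13) and lower in HK2 Dsh (-1.29 ± 0.15), and the effects differed by 2.34 ± 0.19 (edgeR adjusted p = 5.13e-11). SH3KBP1, an endocytic adaptor also called CIN85, went the other way, at -0.46 ± 0.06 in ACHN and 0.77 ± 0.06 in HK2, a difference of -1.21 ± 0.10 (adjusted p = 3.45e-11). CBLB, a ubiquitin ligase, was higher in ACHN by 0.42 ± 0.09, ERRFI1 was higher in HK2 by 0.65 ± 0.06, and PTPRJ was lower in HK2 by -0.14 ± 0.05. LRIG1 in HK2 shKDM5C without replicate 1 was 0.13 ± 0.13 (edgeR adjusted p = 0.545). Its HK2 interaction was then -0.13 ± 0.22 (adjusted p = 0.722). By these values the LRIG1 fall in HK2 shYY1 was close in size to that in HK2 Dsh. Over all tested genes of this list, with the gene not named, the lowest value was -1.28 in HK2 shYY1 and -1.37 in ACHN shYY1. LRIG1 in the ACHN single knockdowns is not given here, so its higher level in ACHN Dsh does not describe them.

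**Figure D4:**
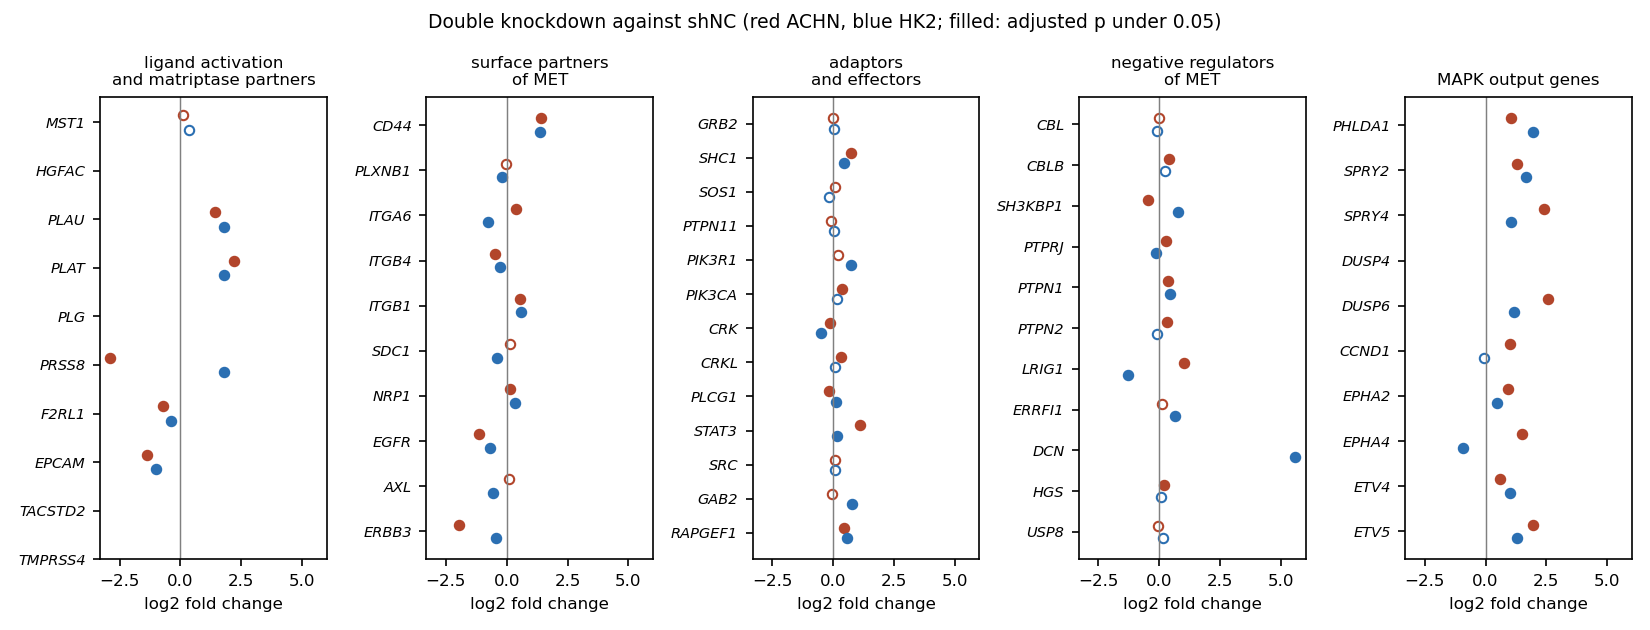
Log2 fold change of each tested list gene in Dsh against shNC, in ACHN (red) and HK2 (blue), in 5 lists of the wider pathway, where filled points passed an edgeR adjusted p under 0.05. All 9 tested MAPK output genes lie above 0 in ACHN and 7 do so past the test in HK2, PLAU and PLAT lie above 0 in both lines, and PRSS8, LRIG1, SH3KBP1 and EPHA4 lie on opposite sides.

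The genes whose pattern was most like that of MET were GPR107, TLN1, C18orf54, CCDC50 and FOXK1, ranked among 9004 genes by the smaller of the Pearson correlations of log2 CPM with MET over the 12 libraries of each line. The correlations were 0.95 for GPR107, 0.95 for TLN1, 0.95 for C18orf54, 0.95 for CCDC50 and 0.97 for FOXK1 in ACHN, and 0.94, 0.94, 0.93, 0.91 and 0.90 in HK2. Without HK2 shKDM5C replicate 1 the HK2 values, over 11 libraries, were 0.92, 0.95, 0.90, 0.93 and 0.86. The points share the libraries and fall into groups, so these are descriptions. TLN1, which encodes the focal adhesion protein talin, ran from 734 ± 14.5 CPM in ACHN shNC to 984 ± 5.97 in ACHN Dsh, and from 423 ± 9.48 to 505 ± 13.4 in HK2. Among the members themselves, the correlation with MET over the 12 ACHN libraries was 0.81 for GAB1, 0.16 for SPINT1, -0.83 for MST1R and -0.77 for SPINT2, and over the 12 HK2 libraries 0.47 for GAB1, -0.02 for SPINT1, -0.27 for ST14, -0.25 for HPN and -0.44 for SPINT2. The HK2 values rest on shKDM5C replicate 1: over the other 11 libraries they were 0.07 for GAB1, 0.71 for SPINT1, -0.43 for ST14, 0.29 for HPN and 0.61 for SPINT2, so that HPN, SPINT1 and SPINT2 turned from negative to positive.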

How the data were processed

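RNA-seq was analysed in 24 libraries, 8 groups of 3, with none left out. Before deposit, the authors mapped read pairs using HISAT2 (version 2.0.5) and assigned them to genes using featureCounts (version 1.5.0-p3 in the submitters' processing notes, 2.0.1 in the table headers) on Ensembl release 84 (GRCh38), without strand. The deposited values were raw counts per gene in 1 table a library, with exon length.

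Ensembl identifiers were mapped to symbols for 56558 of 60675 genes. CPM used TMM factors within a cell line, and TPM used the length column. Tests used edgeR 4.0.16 in R 4.3.3 (TMM, filterByExpr, quasi-likelihood F test) on the libraries of both groups, and p-values were adjusted by Benjamini-Hochberg across every tested gene, with a threshold of 0.05. All 12 libraries of a line entered its interaction, and shNC and knockdown libraries of both lines entered each difference between lines. SEs were derived from the F statistic. With 3 against 3 libraries an exact permutation test cannot go below 0.1. The fits were also run on simulated counts with the same spread setting for every gene and no outlying library. That setting is simpler than these data, so the run does not bear on single results.

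Alternatives were DESeq2 1.42.0, other scalings, other filters, all 4 groups in 1 fit, a replicate block and the omission of each library. The fits of all HK2 groups without shKDM5C replicate 1, and the MET correlations without it, were added after seeing the data. The members and lists were chosen with earlier results of these data known. From each list, up to 2 higher and 2 lower genes, those that changed most in a double knockdown, were named (at least 10 CPM in the higher group), with the 5 genes most like MET. Repeat numbers did not pair the libraries: the correlation of deviations between libraries of 1 number was -0.0399 to 0.0416 in ACHN and -0.0894 to 0.0376 in HK2.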

Additional observations from a re-analysis of the deposited data

Results flagged for a closer look

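The effect of a knockdown differed between the lines, by an interaction term in edgeR (ACHN effect minus HK2 effect, log2, adjusted p under 0.05), in 7 results. In the double knockdown these were SPINT1 (-1.39 ± 0.13 SE, adjusted p = 6.99e-10), SPINT2 (-1.50 ± 0.23, adjusted p = 3.97e-06), GAB1 (0.41 ± 0.11, adjusted p = 0.00339) and MST1R (-1.60 ± 0.66, adjusted p = 0.0472). The MST1R value rests on 8 counts over the HK2 shNC libraries and was lost in 12 alternatives, with adjusted p up to 0.162. In shYY1 they were SPINT1 (0.53 ± 0.14, adjusted p = 0.00445) and SPINT2 (-1.53 ± 0.29, adjusted p = 0.000109). In shKDM5C it was GAB1 (-0.90 ± 0.26, adjusted p = 0.0412), which was lost in 10 alternatives, with adjusted p up to 0.103. Without HK2 shKDM5C replicate 1 the GAB1 value was -0.60 ± 0.13, and SPINT1 also differed, at -0.96 ± 0.15.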

How the results depend on the processing

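Over the tests of single members, 1293 alternative values kept direction and side of the threshold, 58 lost the call, 22 gained one and 31 turned direction; none of the 31 was a called change under edgeR with all libraries. For the results named next the cause was not tested, except that fits without HK2 shKDM5C replicate 1 hold fewer libraries. In HK2 shKDM5C against shNC, 2 pathway genes were higher and 2 lower; the lower count was 5 with DESeq2, 5 with no filter and 7 with all 4 groups in 1 fit. That fit also gave, against shNC, 0 members, 4 higher and 2 lower pathway genes in HK2 shYY1, 1 member and 8 lower pathway genes in HK2 Dsh, and 2 members in HK2 Dsh against shYY1. Without shKDM5C replicate 1 it gave 3 members, 5 higher and 12 lower pathway genes and MET at -0.14 in HK2 shKDM5C, 2 members in HK2 shYY1, and 3 members and GAB1 at 0.11 in HK2 Dsh against shKDM5C. Scaling by total counts gave 2 members in HK2 shYY1, 0 in HK2 Dsh against shKDM5C and MET at 0.077 in the HK2 interaction, and no filter gave 3 members in that interaction. With CPM in place of TPM, 2 groups changed rank for MST1R in ACHN and 2 for ST14 in HK2. The replicate block gave 0 higher and 0 lower pathway genes and HPN at -0.12 in HK2 shKDM5C, ST14 at 0.028 in HK2 shYY1, 0 members in HK2 Dsh against shKDM5C and 0 in the difference of the shKDM5C effect between lines. With each library left out in turn, values ran as follows. In HK2 shKDM5C they were 0 to 3 members, 0 to 6 higher and 0 to 14 lower pathway genes, MET -0.14 to 0.40, ST14 -0.14 to 0.54 and HPN -0.26 to 0.47, the highest counts being without shKDM5C replicate 1. In HK2 shYY1 they were 1 to 2 members, 7 to 12 lower pathway genes and ST14 -0.27 to 0.42, in HK2 Dsh ST14 -0.67 to 0.015, and in ACHN shKDM5C SPINT2 -0.25 to 0.083. Between Dsh and the single knockdowns, MST1R ran from -0.092 to 0.014 and SPINT2 from -0.32 to 0.41 against shYY1 in ACHN, and in HK2 against shKDM5C the members called from 0 to 4 and GAB1 from -0.37 to 0.099. In the interaction, ACHN had MST1R -0.038 to 0.22, SPINT1 -0.022 to 0.19 and SPINT2 -0.29 to 0.45, and HK2 had 0 to 4 members, MET -0.20 to 0.34 and GAB1 -0.099 to 0.37. The difference of the shKDM5C effect between lines had 0 to 2 members, MET -0.45 to 0.064, MST1R -0.62 to 1.87 and ST14 -0.086 to 2.24, and the shYY1 difference had 2 to 3 members. Depth limits HGF in both lines, MST1R in HK2, and ST14, HPN and SPINT2 in ACHN. Other scalings moved the pathway genes by a median of -0.09 to 0.10 on the log2 scale.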

Other observations

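CDH1, which encodes E-cadherin, was at 24.4 to 26.9 TPM in ACHN shNC libraries and 21.2 to 23.9 in shYY1, but at 2.49 to 3.70 in shKDM5C and 2.30 to 3.57 in Dsh. These are the ACHN groups in which SPINT1 was below shNC. In HK2, CDH1 was at 0.510 to 1.17 TPM in shNC and 0.210 to 0.349 in Dsh, the group in which SPINT1 was above shNC. A link between CDH1 and SPINT1 was not tested. CDH1 was picked from the 10 epithelial markers, outside the rule for naming genes. The summed level of those markers was 1286 to 1313 TPM in ACHN shKDM5C against 1192 to 1213 in shNC. Of 7 tested there, 1 was higher and 5 lower (all genes 28.9% and 27.7%). KDM5C itself was higher in shYY1 than in shNC, by 0.34 ± 0.04 (SE, log2) in ACHN (edgeR adjusted p = 1.14e-08) and by 0.35 ± 0.05 in HK2 (adjusted p = 1.54e-05). DCN, which encodes decorin, a proteoglycan that binds MET, was counted at 8 over the HK2 shNC libraries and 374 over the HK2 Dsh libraries, and was chosen after its values were seen.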
